A study of Mus musculus with 9 samples.

Results

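The 39 Hox genes of the mouse are the members described here, chosen by symbol (the letters Hox, a cluster letter from a to d and a number) among 55414 genes listed in the deposited tables. All 39 were present: 11 in the HoxA cluster on chromosome 6, 10 in HoxB on chromosome 11, 9 in HoxC on chromosome 15 and 9 in HoxD on chromosome 2. Each was described by its cluster and by its paralog number, which runs from 1 to 13 and is shared by the matching genes of the 4 clusters.

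The study sequenced RNA from cells labelled as mouse lung alveolus to compare young with naturally aged animals, and aged animals with and without PDK4-IN, an inhibitor of the enzyme pyruvate dehydrogenase kinase 4. Cells labelled as mostly fibroblasts were taken from snap-frozen tissue by laser capture microdissection, a method that cuts selected cells from a tissue section with a laser, and were pooled for RNA preparation. According to the labels all mice were C57BL/6J males of wild-type genotype. The study's methods, however, name both sexes for its aging mice. The 9 libraries fell into 3 groups of 3. The Young group came from young mice, whose age the labels do not give. The Aged group came from mice that received vehicle once every 2 weeks for 4 months from 20 months of age and were examined at 24 months. The PDK4-IN group was of the same age and received PDK4-IN on the same schedule. No dosing of the Young mice is given, so age and vehicle dosing cannot be told apart between Young and Aged. Nothing in the labels says that the 3 libraries of a group come from separate animals, so each p-value reflects spread among libraries that could be partly or wholly technical.

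Hox genes encode homeodomain transcription factors that give cells of the embryo their position along the body axis and, in the limb and the urogenital tract, along the length of the organ. The order of the genes on the chromosome follows the order of the body regions that use them, with low paralog numbers toward the head and high numbers toward the tail and the tips of the limbs, and connective tissue cells of adults keep much of this pattern. In the embryonic mouse lung the best known members have low numbers, such as Hoxa5 and Hoxb5, which act in the growth and branching of the airways.

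Library totals ran from 19456354 to 26660419 counts. The broad fibroblast genes of a 14-gene marker list were high, with summed levels of 12790 to 15770 CPM (counts scaled to a common total per library) in the Young and PDK4-IN libraries and 11921 to 12083 in the Aged ones. Of the 14, 11 reached 1 CPM in every group. Tcf21, a transcription factor that defines lung fibroblasts, lay at 0.448 CPM on average in Young and 0.168 with PDK4-IN and had no count in Aged, which allows up to 0.0425 CPM over the 3 Aged libraries (3 counts of their total). The surfactant genes of type 2 alveolar cells, Sftpa1, Sftpb, Sftpc and Sftpd, stayed at or under 0.488 CPM in every library, and Ager, which defines type 1 cells, at or under 1.04 CPM. Other genes of these lists were higher, among them Abca3 at 58.0 to 74.8 and Etv5 at 46.3 to 62.0 CPM over the group means, Cd74 at 16.2 CPM in Aged, and Cav1 and Pdpn, which fibroblasts also express, at 316 to 535 and 233 to 379 CPM. The alveolar origin of the libraries is therefore given here as the label states it, and the positional levels below were not tested against another tissue. A list of 14 leukocyte and macrophage markers summed to between 44.4 and 54.1 CPM in Young, 4963 and 5017 CPM in Aged and 153.02 and 170.4 CPM with PDK4-IN, with all 14 at 1 CPM or more in Aged. Markers of leukocytes were thus by far highest in the Aged libraries, but also higher with PDK4-IN than in Young, and the part of this in the Hox differences below was not tested. In such bulk samples fewer cells of a type and less RNA per cell cannot be told apart. Young library 3 stood farthest from its group, with a chi-square per gene of 18.7 to 19.1 against the other Young libraries, where counting alone gives 1, while those others differed from each other by 3.01. The corresponding values were 2.56 to 2.97 within Aged and 5.18 to 17.4 within the PDK4-IN group.

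Most of the Hox genes were expressed, from all 4 clusters. A mean of 1 CPM or more in at least 1 group was reached by 33 of the 39, and 15 reached 10 CPM in at least 1 group. The 6 below 1 CPM in all groups were Hoxa6, Hoxb1, Hoxb13, Hoxc12, Hoxd1 and Hoxd3. Hoxb1, which acts in the hindbrain, was the lowest, with a count in only 2 of the 9 libraries and at most 0.148 CPM. A library without a count of a gene allows up to 0.113 to 0.154 CPM, depending on its depth, a limit that covers counting error only. Hoxb13, which acts in the prostate and the tail end of the body, stayed at or under 0.371 CPM, Hoxd1 at or under 0.301 CPM, Hoxa6 at or under 0.742 CPM, Hoxd3 at or under 1.13 CPM and Hoxc12 at or under 1.36 CPM.

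Levels were compared between genes per kilobase (kb) of the gene length that the authors list. Hoxc6, a gene of the thoracic region and of the nerve cells that serve the forelimb, was the highest, at 22.1 CPM per kb over the 9 libraries. It was followed by Hoxd13 at 12.6, Hoxa11 at 12.3 and Hoxa10 at 10.95 CPM per kb, then Hoxc8 at 8.40, Hoxb6 at 7.61 and Hoxc10 at 7.27 CPM per kb. Hoxd13 and Hoxa11, the first needed for digits and the second for the forearm and uterus, thus stood among the 3 highest members on this scale, and their Young levels of 13.6 ± 1.24 and 12.5 ± 0.668 CPM per kb (SD, n = 3) lay within their spread of each other. The deposited TPM are counts divided by transcript length, with these length-scaled values then brought to a common total per library. In TPM Hoxc6 was again the highest, at 35.3. However, Hoxa10 at 28.5 and Hoxa9 at 20.4 stood above Hoxd13 and Hoxa11, both at 19.1 TPM. By contrast Hoxa5 stood at 1.83 and Hoxb5 at 2.19 CPM per kb over the 9 libraries. Between 0.5 and 1.1 CPM per kb the neighbours Hoxd12, Hoxa4, Hoxc12 and Hoxa2 followed each other at 1.00, 0.917, 0.675 and 0.587 CPM per kb, and the spread of Hoxc12 in Young (0.397) covered the gaps to its neighbours.

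**Figure D1:**
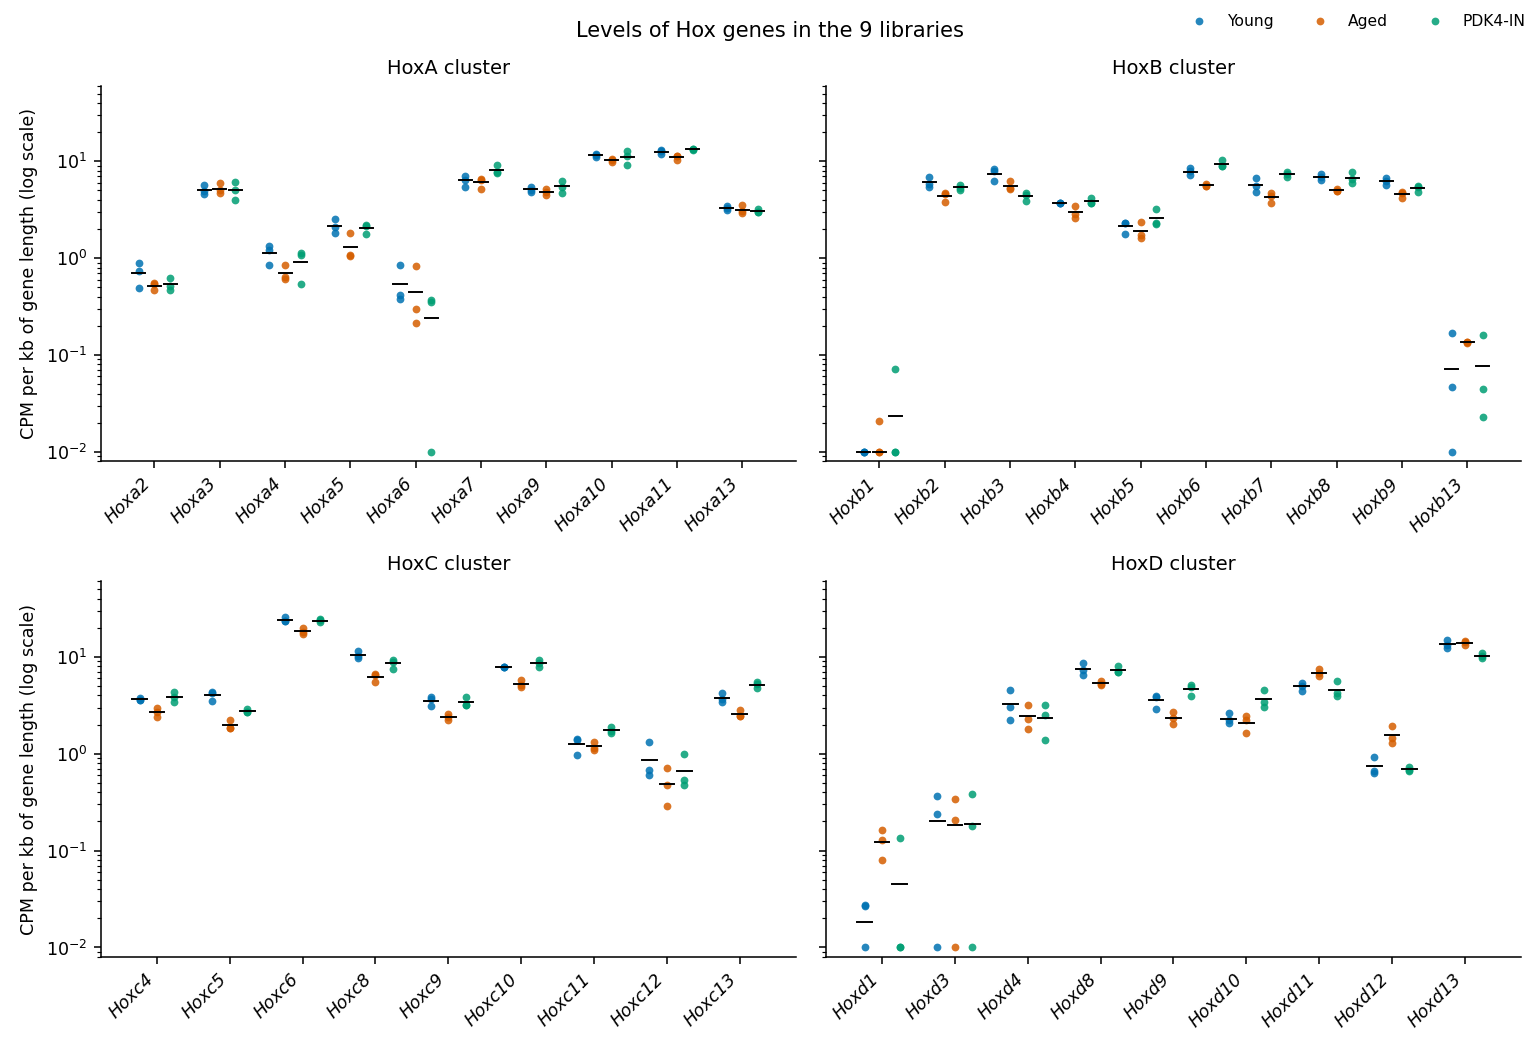
Level of 38 of the 39 Hox genes in the 9 libraries, in CPM per kb of gene length on a log axis, by cluster and in order of paralog number. Points are libraries, black lines are group means, and values under 0.01 are drawn at 0.01. Hoxc6 is the highest at 22.1 over the 9 libraries, and Hoxb1 the lowest.

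Added over all 39 genes, the Hox level was 391 ± 10.6 CPM in Young, 319 ± 4.55 CPM in Aged and 383 ± 4.13 CPM with PDK4-IN (SD, n = 3). The highest Aged library (322.1 CPM) lay below the lowest of the other 6 (378 CPM). The clusters did not share this equally. HoxC summed to 113 ± 5.70 CPM in Young, 76.6 ± 2.33 in Aged and 111 ± 1.19 with PDK4-IN, and HoxB to 79.2 ± 1.18, 59.6 ± 2.31 and 75.1 ± 2.36 CPM. HoxA stood at 121 ± 3.07, 109.6 ± 4.71 and 125 ± 8.20 CPM, with all Aged libraries again lowest. HoxD stood at 78.0 ± 8.03, 73.5 ± 2.23 and 72.4 ± 2.998 CPM, where all groups overlapped. These levels depended on the unit. In the deposited TPM the Hox total was 319.5 ± 9.73 in Young, 260.7 ± 2.88 in Aged and 286.1 ± 16.4 with PDK4-IN. There all PDK4-IN libraries lay between the other groups, the lowest at 269.4 against 262.4 TPM in the highest Aged library. HoxA stood at 106.3 ± 9.10, 96.1 ± 3.03 and 94.8 ± 12.4 TPM, where all groups overlapped.

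The make-up of the Hox RNA was described by shares of the Hox total, which do not move when all Hox genes are scaled by 1 factor. HoxC held 28.8 ± 0.728% of the summed Hox CPM in Young, 24.0 ± 0.739% in Aged and 29.0 ± 0.0813% with PDK4-IN, and HoxD held 19.9 ± 1.49%, 23.0 ± 0.374% and 18.9 ± 0.989%. Paralog groups 9 to 13, the genes of the trunk's tail end and of the limbs, held 48.0 ± 0.0882% in Young, 52.2 ± 1.16% in Aged and 49.1 ± 0.304% with PDK4-IN. Paralog groups 5 to 8 held 34.7 ± 0.811%, 30.6 ± 0.556% and 35.4 ± 0.570%, and groups 1 to 4 the remaining 17.3 ± 0.859%, 17.2 ± 0.960% and 15.5 ± 0.266%. The unit changed these shares but Aged stayed highest: per kb, paralog groups 9 to 13 held 42.2%, 46.6% and 43.2%, and in the deposited TPM, which also allow for length, 47.8%, 52.2% and 48.3%, where the Young and PDK4-IN libraries overlapped.

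**Figure D2:**
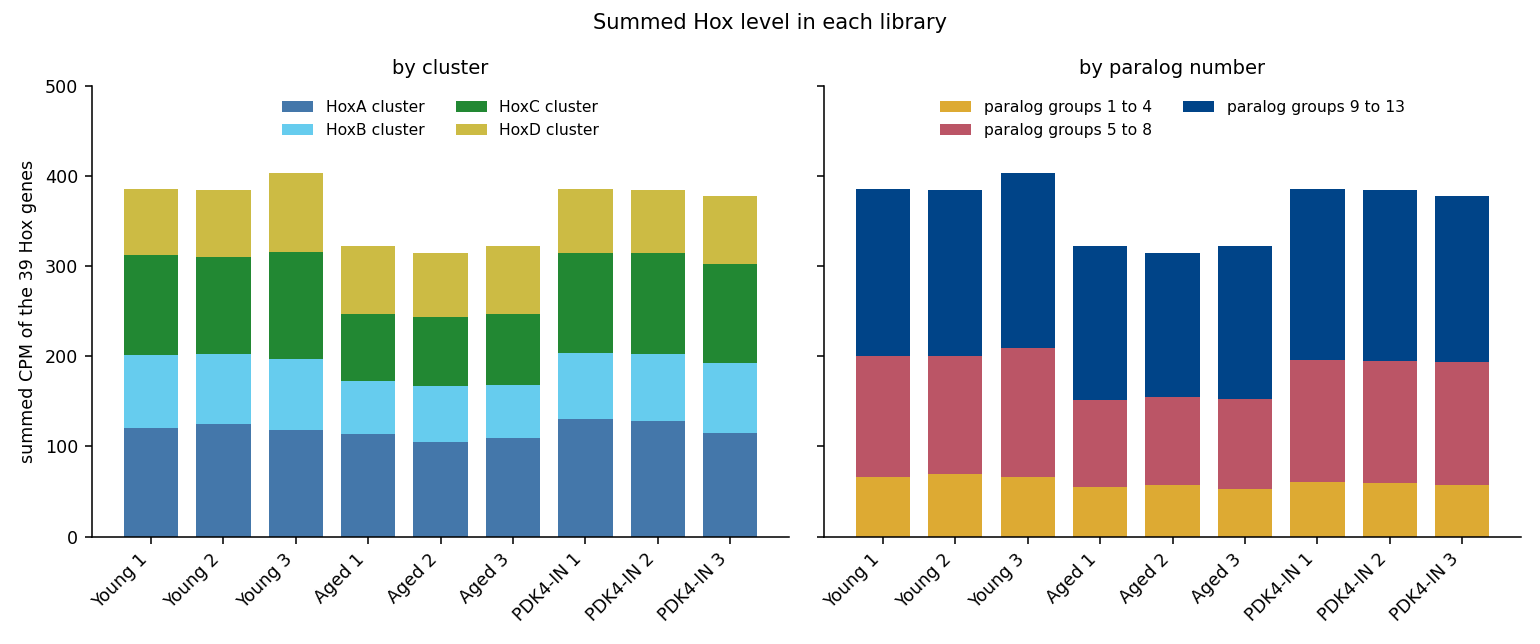
Summed CPM of the 39 Hox genes in each library, stacked by cluster (left) and by paralog number (right). The 3 Aged bars are the shortest, at 314 to 322.1 CPM, and most of the missing height is in HoxC and HoxB on the left and in paralog groups 5 to 8 on the right.

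Aging was compared in the Young and Aged libraries, and a change with age means Aged over Young here and below, vehicle dosing included. Of the 39 genes, 35 had enough counts to be tested (Hoxa6, Hoxb1, Hoxb13 and Hoxd1 had not), with the edgeR quasi-likelihood test and an adjusted p under 0.05 over all genes as the call. With age, 15 Hox genes fell and 2 rose, and 18 did not pass. Over all 16123 genes tested, 19.0% were called lower and 21.4% higher. The median log2 fold change was -0.43 over the 35 Hox genes and 0.0093 over all genes tested. In HoxC, 7 of 9 fell, in HoxB 5 of 8 and in HoxA 1 of 10 (Hoxa5), while HoxD divided into 2 that fell and 2 that rose out of 8. By paralog number, 7 of 10 tested members of groups 5 to 8 fell, against 3 of 10 in groups 1 to 4 and 5 of 15 in groups 9 to 13. When Young library 3 was left out, 17 fell and 2 rose, and when Aged library 2 was left out, 12 fell and 1 rose.

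PDK4-IN treatment was compared with vehicle in the Aged and PDK4-IN libraries, where 18 Hox genes were higher with PDK4-IN, 4 were lower and 13 did not pass. Over all 16275 genes tested, 23.9% were called higher and 25.7% lower, and the median log2 fold change was 0.39 over the 35 Hox genes and -0.0009 over all genes. In HoxC, 8 of 9 were higher, in HoxB 4 of 8, in HoxA 3 of 10 and in HoxD 3 of 8. The 4 that were lower were Hoxb3, Hoxd11, Hoxd12 and Hoxd13. In paralog groups 5 to 8, 9 of 10 tested members were higher. Leaving out PDK4-IN library 2 gave 16 higher and 2 lower.

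The marker lists of the cells that such a capture could hold moved with the same groups. Leukocyte and macrophage markers were higher in Aged than in Young in 14 of 14 and lower with PDK4-IN than in Aged in 14 of 14. Against Young, 12 of these 14 and 2 of 4 tested neutrophil markers were higher with PDK4-IN. Of 11 tested fibroblast markers, 7 fell and 2 rose with age, and 6 were higher and 2 lower with PDK4-IN than in Aged. Over all genes tested, 19.0% fell and 21.4% rose with age, and 23.9% were higher and 25.7% lower with PDK4-IN than in Aged. Against Young, 13.3% of all genes tested were higher with PDK4-IN. Smooth muscle and pericyte markers summed to 2406 to 2523 CPM in the Young libraries, 664 to 676 CPM in the Aged and 719.6 to 740.4 CPM in the PDK4-IN ones. Their sum was thus highest in Young, and of the 11 tested 9 fell and 1 rose with age. Type 1 alveolar cell markers summed to 879 to 894 CPM in Young, 737 to 748 in Aged and 805 to 817 with PDK4-IN. Type 2 cell markers summed to 108 to 126, 154 to 157 and 97.4 to 117 CPM. Endothelial markers summed to 44.7 to 54.2, 59.99 to 63.7 and 49.3 to 57.1 CPM. The Aged libraries thus also stood apart from the others in these sums. Of 4 tested type 2 markers, 3 rose with age and 4 were lower with PDK4-IN than in Aged. Of 8 tested endothelial markers, 4 rose with age, and 3 were lower and 1 higher with PDK4-IN than in Aged. Airway markers summed to 3.85 to 7.66 CPM and mesothelial markers to 16.4 to 19.9 CPM over the 9 libraries. Neutrophil markers summed to 8.96 to 11.2 CPM in Young, 139.01 to 146 CPM in Aged and 60.5 to 77.8 CPM with PDK4-IN, while erythroid markers stayed at or under 1.501 CPM and those of B, T and NK cells at or under 1.61 CPM. The part of these cells in the Hox differences was not tested.

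Both comparisons use the same Aged libraries, so a chance deviation of those would move each gene in opposite directions in them, and their calls are set side by side only. Of the 15 genes lower in Aged than in Young, 12 were higher with PDK4-IN than in Aged, 2 were not called (Hoxb2 and Hoxb9) and 1 was lower again (Hoxb3). Both genes higher in Aged, Hoxd11 and Hoxd12, were lower with PDK4-IN. The share of all genes tested with such opposite calls was not computed, so these counts are not read as particular to Hox genes. Between the PDK4-IN and Young groups, fitted on all 9 libraries, 6 of the 35 were called: Hoxc13 and Hoxd10 were higher with PDK4-IN, and Hoxb3, Hoxc5, Hoxc8 and Hoxd13 lower. In that comparison 13.3% of 16553 genes tested were called higher and 15.7% lower, and the median log2 fold change of the Hox genes was -0.08 against 0.0195 over all genes. A gene that was not called there is not shown to be alike in both groups.

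**Figure D3:**
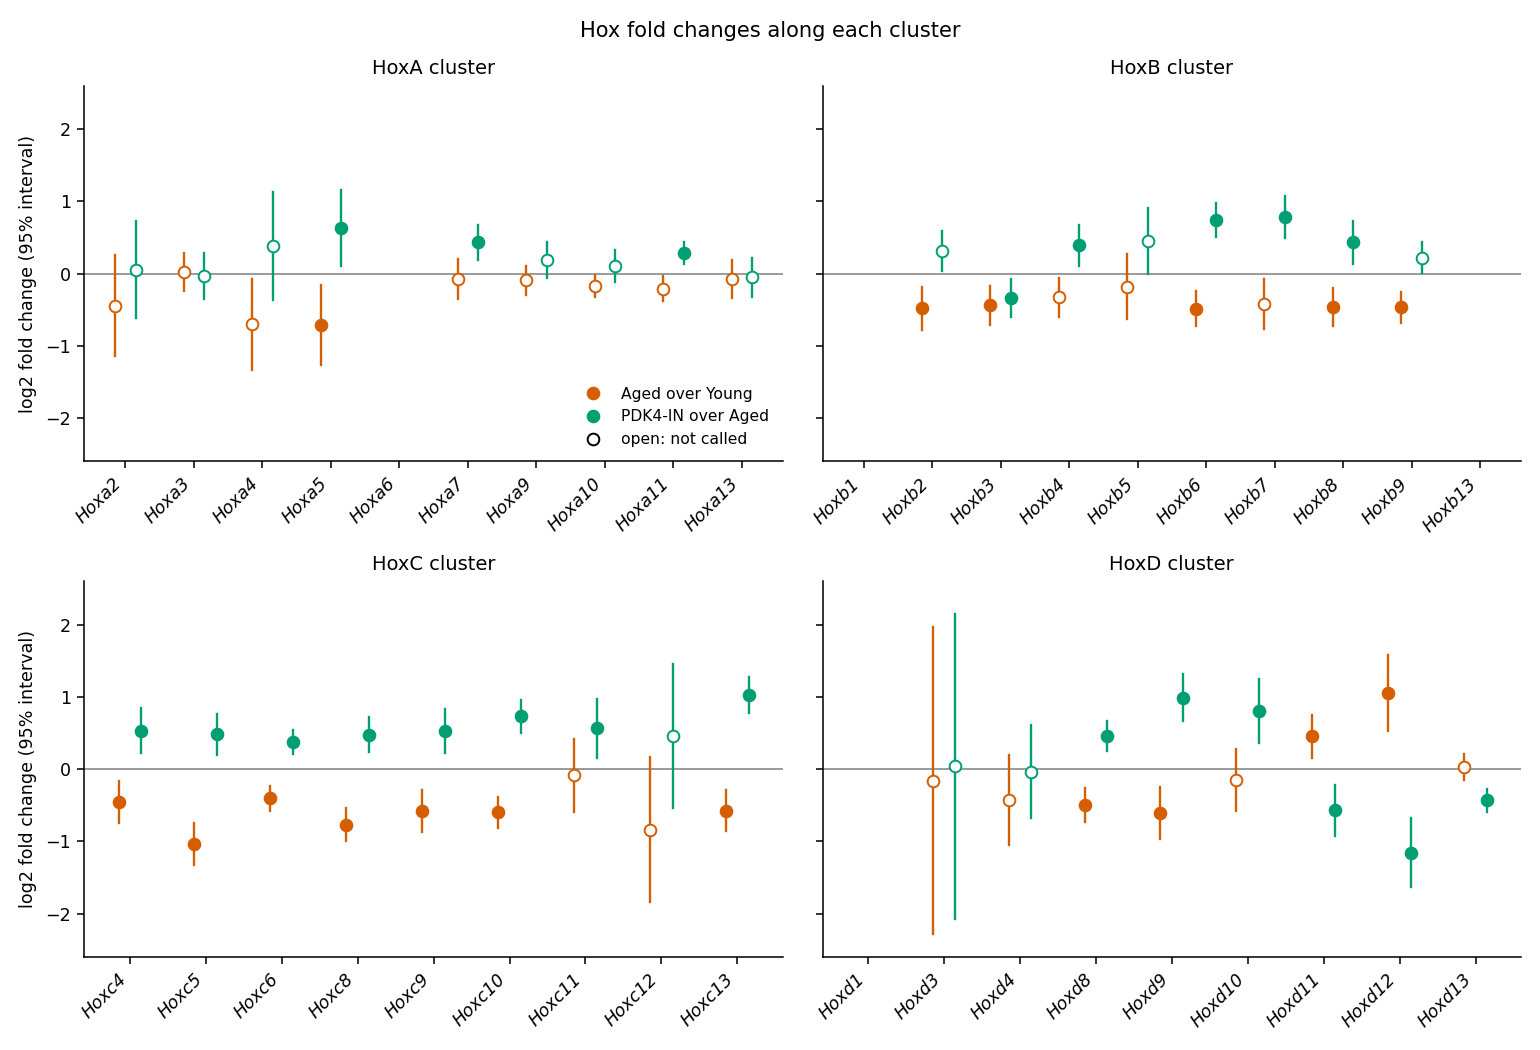
Log2 fold change of tested Hox genes with the 95% interval, Aged over Young in orange and PDK4-IN over Aged in green, in order of paralog number within each cluster. Filled points were called and open points were not, and genes drawn with no point were not tested. In HoxC the orange points lie below 0 and the green above, whereas in HoxD the signs turn between Hoxd10 and Hoxd11.

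In HoxC, 7 of the 9 members fell with age and 8 of the 9 were higher with PDK4-IN than in Aged. The mammalian HoxC cluster keeps no gene of the lowest paralog numbers, and its members act in the neck, trunk and hind part of the body. Hoxc4, a gene of the neck region, stood at 7.52, 7.06 and 7.14 CPM in the Young libraries, 5.85, 4.77 and 5.33 in the Aged ones and 6.85, 7.64 and 8.50 with PDK4-IN. Its log2 fold change was -0.46 ± 0.13 (adjusted p = 0.0183) in Aged over Young and 0.53 ± 0.14 (adjusted p = 0.009) in PDK4-IN over Aged, and the Aged libraries lay below all others. Hoxc5, its neighbour, showed the largest fall among the Hox genes, with 12.6, 10.2 and 12.4 CPM in the Young libraries, 5.40, 6.54 and 5.43 in the Aged ones and 8.49, 7.79 and 7.84 with PDK4-IN. It fell by 1.03 ± 0.13 (adjusted p = 1.20e-04) with age, was higher with PDK4-IN by 0.48 ± 0.13 (adjusted p = 0.00861) and stayed lower than in Young, with -0.57 ± 0.12 (adjusted p = 0.00445), so that the 3 groups did not overlap. Exons of Hoxc5 and Hoxc10 overlap on the same strand in the annotation at hand, so reads of the shared part cannot be told apart.

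The highest Hox gene, Hoxc6, was at 37.1, 36.7 and 40.3 CPM in the Young libraries, 28.4, 27.3 and 31.6 in the Aged ones and 36.3, 38.7 and 37.5 with PDK4-IN. Its log2 fold change was -0.40 ± 0.08 (adjusted p = 0.00226) with age and 0.38 ± 0.08 (adjusted p = 0.0018) for PDK4-IN over Aged, and all Aged libraries lay below the other 6. Hoxc8, which patterns the thorax and the nerve cells that reach the paw, was at 19.1, 18.1 and 21.3 CPM in the Young libraries, 10.2, 12.3 and 12.3 in the Aged ones and 17.4, 16.5 and 14.04 with PDK4-IN. It was lower in Aged, -0.77 ± 0.10 (adjusted p = 1.95e-04), and between the other groups in the PDK4-IN libraries, 0.48 ± 0.11 (adjusted p = 0.00412) over Aged and -0.32 ± 0.11 (adjusted p = 0.0432) over Young. The call against Young was lost in 9 of 12 alternatives, among them DESeq2 and leaving out any Young library, with an adjusted p of up to 0.157. Hoxc9, which marks the thoracic spinal cord, was at 7.37, 9.05 and 8.74 CPM in the Young libraries, 5.25, 5.63 and 6.15 in the Aged ones and 7.62, 7.53 and 9.19 with PDK4-IN. The log2 fold changes were -0.58 ± 0.13 (adjusted p = 0.00557) and 0.53 ± 0.14 (adjusted p = 0.0078), again with all Aged libraries lowest.

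Toward the tail end of the cluster the same held for Hoxc10 and Hoxc13. Hoxc10, a gene of the lumbar region and hindlimb, stood at 15.1, 14.9 and 15.2 CPM in the Young libraries, 11.03, 9.70 and 9.25 in the Aged ones and 16.7, 17.9 and 15.1 with PDK4-IN. Its log2 fold change was -0.60 ± 0.09 (adjusted p = 5.74e-04) in Aged over Young and 0.73 ± 0.10 (adjusted p = 1.65e-04) in PDK4-IN over Aged, and the Aged libraries were the lowest again. Hoxc13, which hair and nails need, stood at 8.43, 9.10 and 10.4 CPM in the Young libraries, 5.96, 6.91 and 6.01 in the Aged ones and 13.5, 11.8 and 12.9 with PDK4-IN. Its fall with age was -0.58 ± 0.13 (adjusted p = 0.00464), and its rise with PDK4-IN, 1.03 ± 0.11 (adjusted p = 2.67e-05), was the largest among the Hox genes. It also stood above Young, 0.42 ± 0.11 (adjusted p = 0.0155), without overlap between any of the groups, but this call was lost in DESeq2 (adjusted p = 0.0528) and without Young library 1 or 2 or PDK4-IN library 3 (0.0511 to 0.077). Hoxc11 was low and was called only in PDK4-IN over Aged, with 2.78, 1.95 and 2.88 CPM in the Young libraries, 2.33, 2.23 and 2.67 in the Aged ones and 3.48, 3.32 and 3.81 with PDK4-IN. Its log2 fold change over Aged was 0.56 ± 0.19 (adjusted p = 0.0264). The call was lost in DESeq2 (adjusted p = 0.0848), with no filter on low counts (0.0521) and without Aged library 1 or 2 or PDK4-IN library 3 (0.0766 to 0.0852). Hoxc12, under 1 CPM on average in each group, was not called.

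In HoxB, whose genes act from the hindbrain to the trunk, 5 members fell with age and 4 were higher with PDK4-IN than in Aged. Hoxb2, a hindbrain and neck gene, stood at 8.88, 9.40 and 11.2 CPM in the Young libraries, 6.22, 7.47 and 7.66 in the Aged ones and 8.24, 9.36 and 8.69 with PDK4-IN. It fell with age, -0.48 ± 0.13 (adjusted p = 0.0154), and the difference with PDK4-IN did not pass, 0.31 ± 0.13 (adjusted p = 0.0598), but passed without PDK4-IN library 1 (0.0234). Hoxb3 was an exception in direction, since it was lower in Aged and lower still with PDK4-IN, at 14.98, 15.6 and 11.8 CPM in the Young libraries, 9.76, 11.8 and 10.02 in the Aged ones and 8.88, 7.42 and 8.43 with PDK4-IN. The 3 log2 fold changes were -0.44 ± 0.12 (adjusted p = 0.0167) with age, -0.34 ± 0.12 (adjusted p = 0.0348) for PDK4-IN over Aged and -0.81 ± 0.13 (adjusted p = 7.36e-04) for PDK4-IN over Young, and no group overlapped another, although the lowest Young and the highest Aged library were nearly level. The step from Aged to PDK4-IN was the weakest of these, and was lost in DESeq2 (adjusted p = 0.115), with a replicate block (0.0629) and without Aged library 2 or 3 or PDK4-IN library 2 (0.0589 to 0.155). The fall with age was lost without Young library 2 or Aged library 1 or 3 (0.0609 to 0.0769). Exons of Hoxb3os lie on the opposite strand of Hoxb2 and Hoxb3, and this noncoding gene stood in the reverse order, at 0.721 ± 0.653 CPM in Young, 1.52 ± 0.0875 in Aged and 3.12 ± 0.380 with PDK4-IN. The counts of Hoxb3 held fractions in all 9 libraries, so its level is an estimate. The part of reads shared with Hoxb3os in its differences was not tested.

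Hoxb4, known in blood stem cells as well as in the neck, was at 9.44, 9.42 and 9.56 CPM in the Young libraries, 8.78, 7.26 and 6.74 in the Aged ones and 9.51, 9.44 and 10.8 with PDK4-IN. Only the comparison of PDK4-IN over Aged was called, 0.39 ± 0.13 (adjusted p = 0.027). It was lost in DESeq2 (adjusted p = 0.0534) and without Aged library 2 or 3 or PDK4-IN library 3 (0.0872 to 0.101), while the value with age was -0.33 ± 0.12 (adjusted p = 0.0555) and passed without Aged library 1 (0.0260). Hoxb5, one of the lung genes of the embryo, was at 3.33, 4.41 and 4.32 CPM in the Young libraries, 3.08, 4.42 and 3.25 in the Aged ones and 4.35, 4.22 and 6.03 with PDK4-IN. Its groups overlapped and no comparison was called. Hoxb6, a gene of the thoracic region, stood at 11.2, 9.47 and 10.4 CPM in the Young libraries, 7.69, 7.26 and 7.41 in the Aged ones and 11.7, 11.9 and 13.5 with PDK4-IN. It was lower in Aged, -0.48 ± 0.11 (adjusted p = 0.005), and higher with PDK4-IN than in Aged, 0.74 ± 0.11 (adjusted p = 2.34e-04), with all Aged libraries below the other 6.

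Hoxb7, likewise a thoracic gene, was at 7.22, 6.22 and 8.63 CPM in the Young libraries, 5.70, 6.01 and 4.80 in the Aged ones and 8.85, 9.44 and 10.03 with PDK4-IN. It was higher with PDK4-IN, 0.78 ± 0.13 (adjusted p = 5.10e-04), while the value with age, -0.43 ± 0.16 (adjusted p = 0.052), missed the threshold and passed it when Young library 2 was left out (adjusted p = 0.0271). Hoxb8, which also acts in myeloid progenitors and microglia, was at 8.40, 7.37 and 7.83 CPM in the Young libraries, 5.95, 5.67 and 5.63 in the Aged ones and 6.88, 8.88 and 7.42 with PDK4-IN. It fell with age, -0.46 ± 0.12 (adjusted p = 0.0109), and was higher with PDK4-IN, 0.43 ± 0.14 (adjusted p = 0.0213). The latter call was lost in DESeq2 (adjusted p = 0.0531) and without Aged library 2 or 3 or PDK4-IN library 2 (0.0610 to 0.0977). Hoxb9, which patterns the ribs, stood at 17.2, 16.2 and 14.8 CPM in the Young libraries, 10.7, 12.03 and 12.5 in the Aged ones and 14.3, 14.02 and 12.5 with PDK4-IN. It fell with age, -0.46 ± 0.10 (adjusted p = 0.00336), and no call was made for PDK4-IN over Aged, 0.22 ± 0.10 (adjusted p = 0.0871).

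HoxA had the fewest called members of the 4 clusters in each comparison. Its summed level in CPM was the largest in each group, but per kb HoxC was larger in Young (59.5 ± 2.88 against 50.6 ± 1.66 CPM per kb) and with PDK4-IN (58.6 ± 0.858 against 52.0 ± 3.46 CPM per kb). In the deposited TPM the HoxA mean was again the larger, at 106.3 against 97.9 for HoxC in Young, 96.1 against 68.0 in Aged and 94.8 against 87.9 with PDK4-IN. In Young and with PDK4-IN the TPM of these clusters overlapped between libraries. Hoxa5, which the embryonic lung needs, was the only member of the cluster called with age, at 4.77, 3.39 and 3.94 CPM in the Young libraries, 3.38, 1.96 and 2.01 in the Aged ones and 3.99, 4.11 and 3.30 with PDK4-IN. Its log2 fold changes were -0.72 ± 0.25 (adjusted p = 0.0418) with age and 0.63 ± 0.24 (adjusted p = 0.0458) with PDK4-IN, both close to the threshold. The fall was lost without Young library 1 or Aged library 2 or 3 (adjusted p of 0.119 to 0.142). The rise was lost in DESeq2 (0.0736), with library totals alone (0.052) and without Aged library 2 or 3 or PDK4-IN library 2 (0.129 to 0.157). Hoxa7, a thoracic gene, was at 12.9, 14.3 and 10.9 CPM in the Young libraries, 13.1, 10.5 and 12.99 in the Aged ones and 18.4, 15.3 and 15.5 with PDK4-IN. All PDK4-IN libraries lay above the other 6, with 0.43 ± 0.11 (adjusted p = 0.00718) over Aged, while the value with age was -0.08 ± 0.12 (adjusted p = 0.667).

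Among the high-numbered HoxA genes only Hoxa11 was called, in PDK4-IN over Aged. Hoxa11 stood at 26.97, 29.97 and 28.99 CPM in the Young libraries, 25.8, 23.5 and 25.8 in the Aged ones and 30.7, 29.9 and 30.5 with PDK4-IN. It was higher with PDK4-IN by 0.29 ± 0.07 (adjusted p = 0.00592), and with age its value was -0.21 ± 0.08 (adjusted p = 0.0504) with a 95% interval from -0.38 to -0.04, and missed the threshold, which it passed with RLE size factors (adjusted p = 0.0446). Hoxa10, a gene of the lumbar region and the uterus, was at 30.1, 28.7 and 29.9 CPM in the Young libraries, 27.2, 25.4 and 26.7 in the Aged ones and 32.7, 28.7 and 23.5 with PDK4-IN. Its log2 fold change with age was -0.17 ± 0.07 (adjusted p = 0.0609), with a 95% interval from -0.32 to -0.03. Hoxa9, known from blood stem cells and the trunk, was at 17.6, 15.5 and 16.4 CPM in the Young libraries, 16.9, 15.4 and 14.5 in the Aged ones and 15.2, 20.4 and 17.6 with PDK4-IN. Hoxa13, which the digits and urogenital tract need, was at 7.52, 7.98 and 8.22 CPM in the Young libraries, 7.43, 6.96 and 8.43 in the Aged ones and 7.11, 7.64 and 7.12 with PDK4-IN. Neither was called in any comparison, and the 95% intervals of the log2 fold change with age ran from -0.29 to 0.11 for Hoxa9 and from -0.34 to 0.19 for Hoxa13.

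The HoxA genes of the head and neck described next were also not called. Hoxa3, which the thymus and parathyroid need, was the most abundant of them, with 11.8, 14.8 and 12.8 CPM in the Young libraries, 12.9, 15.3 and 12.1 in the Aged ones and 15.8, 13.1 and 10.2 with PDK4-IN. Hoxa2, which patterns the middle and outer ear, was at 1.56, 1.30 and 0.874 CPM in the Young libraries, 0.825, 0.983 and 0.969 in the Aged ones and 0.921, 1.11 and 0.840 with PDK4-IN. In both of these the groups overlapped. Hoxa4, a neck gene, was at 1.36, 2.14 and 1.95 CPM in the Young libraries, 1.35, 1.03 and 0.969 in the Aged ones and 0.870, 1.71 and 1.78 with PDK4-IN. All its Aged libraries lay below Young, but at these counts the interval was wide, from -1.34 to -0.07, and the gene was not called (adjusted p = 0.0723) unless Young library 1 was left out (0.0403).

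HoxD divided along its length. Its genes stand in falling order of their numbers along the plus strand of chromosome 2, and in the limb those with the highest numbers are switched on last and farthest out. Hoxd8 stood at 17.3, 19.2 and 22.6 CPM in the Young libraries, 13.5, 15.01 and 13.7 in the Aged ones and 18.2, 18.4 and 21.03 with PDK4-IN. It was lower in Aged, -0.50 ± 0.11 (adjusted p = 0.00399), and higher with PDK4-IN than in Aged, 0.46 ± 0.09 (adjusted p = 0.00192). Hoxd9 was at 8.18, 6.17 and 8.48 CPM in the Young libraries, 5.74, 4.38 and 4.94 in the Aged ones and 8.49, 10.4 and 10.9 with PDK4-IN. It showed a fall of -0.61 ± 0.16 (adjusted p = 0.0141) in Aged over Young and a rise of 0.99 ± 0.15 (adjusted p = 2.84e-04) in PDK4-IN over Aged. In both genes all Aged libraries lay below the other 6. Hoxd10, a gene of the lumbar region, stood at 4.75, 3.79 and 4.02 CPM in the Young libraries, 4.44, 2.95 and 4.02 in the Aged ones and 6.14, 5.49 and 8.26 with PDK4-IN. Its Young and Aged libraries overlapped, -0.15 ± 0.19 (adjusted p = 0.581), and all PDK4-IN libraries lay above them, 0.81 ± 0.20 (adjusted p = 0.00674) over Aged and 0.63 ± 0.20 (adjusted p = 0.0331) over Young. The call against Young was lost in DESeq2 (adjusted p = 0.055) and when any Young library or PDK4-IN library 3 was left out (0.0502 to 0.153).

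The neighbours Hoxd11, Hoxd12 and Hoxd13, which shape the forearm and digits, were all lower with PDK4-IN than in Aged, and the first and second of them rose with age. Hoxd11 was at 4.96, 5.55 and 6.02 CPM in the Young libraries, 8.29, 7.55 and 6.98 in the Aged ones and 4.36, 4.66 and 6.26 with PDK4-IN. It rose with age, 0.46 ± 0.13 (adjusted p = 0.0201), and was lower with PDK4-IN, -0.57 ± 0.16 (adjusted p = 0.0128), with all Aged libraries above the other 6. The rise was lost in DESeq2 (adjusted p = 0.0733) and without Young library 1 or Aged library 1 or 2 (0.0579 to 0.0922), and the fall without Aged library 1 or PDK4-IN library 2 (0.0599 and 0.0533). Hoxd12, much lower in level, stood at 1.62, 1.67 and 2.36 CPM in the Young libraries, 3.71, 3.31 and 4.89 in the Aged ones and 1.69, 1.86 and 1.73 with PDK4-IN. It rose with age by 1.06 ± 0.24 (adjusted p = 0.0051) and was lower with PDK4-IN by -1.16 ± 0.22 (adjusted p = 0.00115), calls that held under every alternative run, and again the Aged libraries were all highest. Hoxd13, the second most abundant Hox gene per kb, stood at 30.9, 33.00 and 37.01 CPM in the Young libraries, 35.4, 32.7 and 35.9 in the Aged ones and 27.3, 25.1 and 24.4 with PDK4-IN. With age its value was 0.03 ± 0.08 (adjusted p = 0.797), with a 95% interval from -0.15 to 0.21. In contrast, all PDK4-IN libraries lay below the other 6, -0.43 ± 0.07 (adjusted p = 5.61e-04) over Aged and -0.43 ± 0.08 (adjusted p = 0.00248) over Young.

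**Figure D4:**
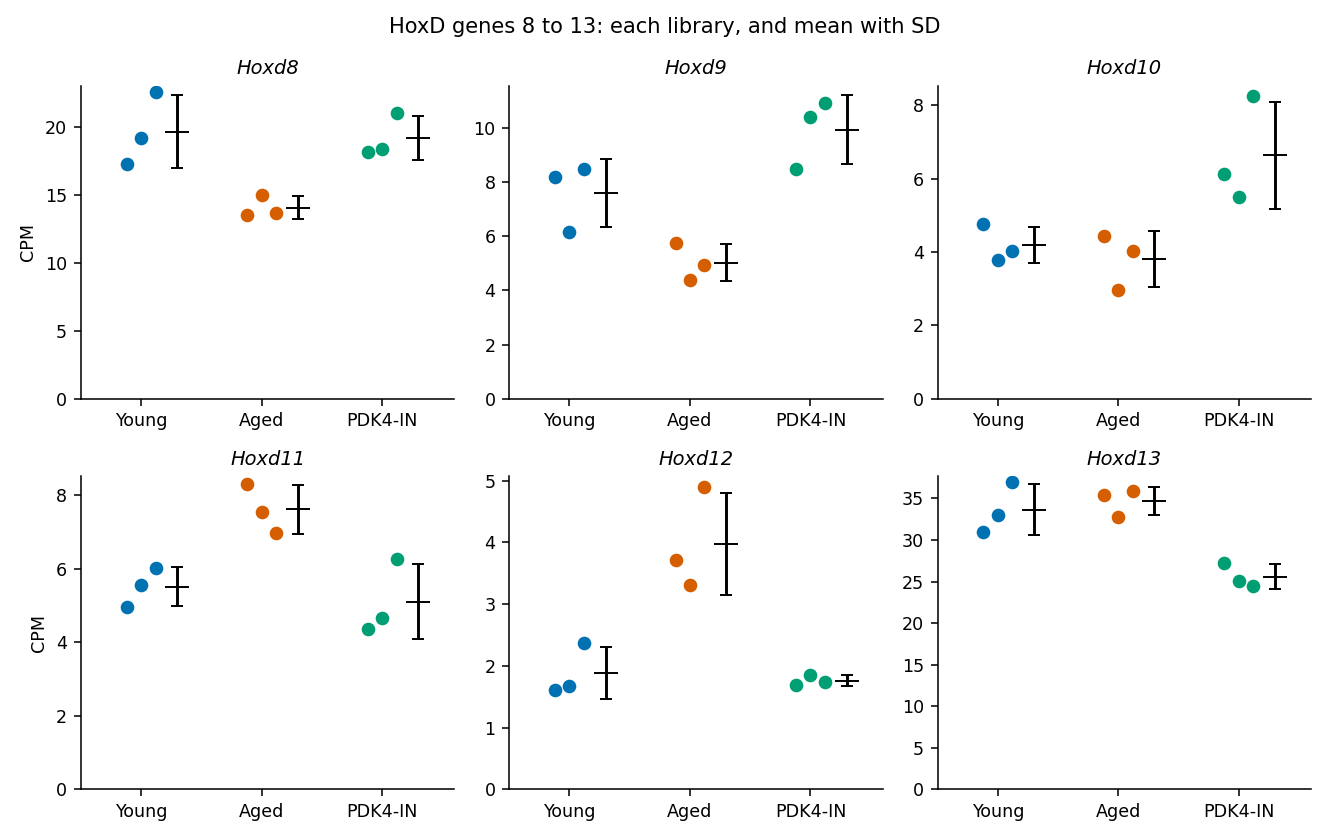
CPM of Hoxd8 to Hoxd13 in each of the 9 libraries (points), with the mean and SD of each group in black. Each panel has its own axis from 0. Aged libraries are lowest for Hoxd8 and Hoxd9 and highest for Hoxd11 and Hoxd12, and PDK4-IN libraries are lowest for Hoxd13.

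The remaining HoxD genes were low and could not be separated cleanly. Hoxd4, a neck gene, stood at 4.55, 3.30 and 6.76 CPM in the Young libraries, 2.71, 4.75 and 3.45 in the Aged ones and 4.77, 3.75 and 2.07 with PDK4-IN. Its exons overlap those of Hoxd3 on the same strand, and within each group the library with the least Hoxd3 had the most Hoxd4. Hoxd3 was at 0.707, 1.09 and 0 CPM in the Young libraries, 1.02, 0.0116 and 0.614 in the Aged ones and 0, 0.538 and 1.13 with PDK4-IN. Their sum ran from 4.39 to 6.76 CPM in Young, 3.73 to 4.76 in Aged and 3.21 to 4.77 with PDK4-IN, so the split between these genes is uncertain, and neither was called. Exons of Hoxd10 and Hoxd11 each overlap the gene model Gm28309, which spans both, and their counts held fractions in all 9 libraries, so their split is likewise an estimate. The opposite directions of Hoxd8 and Hoxd9 on one side and Hoxd12 on the other do not rest on that pair.

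Promoter sequences were taken from RefSeq (build GRCm38.p6, older than that of the counts) for HoxD genes on either side of this divide, as the 250 bases before the start of the gene, 5′ to 3′ on the plus strand. Hoxd9 is at chr2:74697513-74697762, Hoxd10 at chr2:74691641-74691890, Hoxd12 at chr2:74674763-74675012 and Hoxd13 at chr2:74667975-74668224. Capitals mark motifs found on either strand. The motifs searched were the core promoter box spelled TATAAA, the box spelled CCAAT that the factor NF-Y binds, the joint site of Hox proteins and their partner Pbx spelled TGATNNAT, the site of Meis proteins spelled TGACAG and the core site of nuclear receptors, among them those of retinoic acid, spelled AGGTCA. The first pair were higher with PDK4-IN than in Aged and the second pair lower.
Hoxd9: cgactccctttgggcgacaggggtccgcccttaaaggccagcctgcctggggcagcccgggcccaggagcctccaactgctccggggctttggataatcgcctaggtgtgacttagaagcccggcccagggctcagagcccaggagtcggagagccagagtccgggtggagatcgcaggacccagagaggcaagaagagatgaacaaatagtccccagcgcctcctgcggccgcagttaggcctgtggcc
Hoxd10: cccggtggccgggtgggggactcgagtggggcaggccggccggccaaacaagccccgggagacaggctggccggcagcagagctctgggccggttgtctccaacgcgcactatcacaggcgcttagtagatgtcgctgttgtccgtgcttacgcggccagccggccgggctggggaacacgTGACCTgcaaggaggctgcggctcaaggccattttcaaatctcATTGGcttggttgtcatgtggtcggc
Hoxd12: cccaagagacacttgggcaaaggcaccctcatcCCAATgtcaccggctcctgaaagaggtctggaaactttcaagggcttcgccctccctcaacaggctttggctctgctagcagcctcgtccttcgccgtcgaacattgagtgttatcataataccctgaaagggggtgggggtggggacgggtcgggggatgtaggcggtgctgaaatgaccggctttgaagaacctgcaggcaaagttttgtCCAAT
Hoxd13: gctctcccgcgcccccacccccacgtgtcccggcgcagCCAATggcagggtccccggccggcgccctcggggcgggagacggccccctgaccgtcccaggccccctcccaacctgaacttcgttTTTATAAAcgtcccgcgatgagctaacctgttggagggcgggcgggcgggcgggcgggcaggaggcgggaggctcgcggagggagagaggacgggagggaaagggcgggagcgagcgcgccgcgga

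Hoxd9 held none of the 5 motifs in this window, Hoxd10 a CCAAT box and a nuclear receptor core site, Hoxd12 a CCAAT box at 2 places and Hoxd13 a CCAAT box with a TATA box read from both strands, where the letters overlap. The windows of Hoxd13 and Hoxd10 were rich in CpG dinucleotides, with 31 and 20, against 13 in Hoxd9 and 10 in Hoxd12. RefSeq windows were at hand for 22 of the 39 genes, 24 windows in all because Hoxa10 and Hoxd11 each have 2. Their median was 12.5 CpG dinucleotides, against 6.0 over all 32851 RefSeq windows. A CCAAT box was in 58.3% of the Hox windows and 33.8% of all windows, a nuclear receptor core site in 25.0% and 14.0%, a Pbx and Hox site in 16.7% and 7.7%, a TATA box in 16.7% and 12.4%, and a Meis site in 8.3% and 15.9%. Such a match is a run of letters and not a measured binding site.

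Hox proteins bind DNA together with TALE homeodomain cofactors, the Pbx, Meis and Pknox proteins. All 9 of these genes were tested. With age 2 fell, a share close to the 19.0% of all genes tested that fell. These were Meis2, which went from 16.6 ± 1.52 to 13.1 ± 0.277 CPM (-0.36 ± 0.09 on the log2 scale, SE, adjusted p = 0.010) and Pbx3 from 20.8 ± 0.944 to 16.7 ± 1.49 CPM (-0.33 ± 0.09, adjusted p = 0.013), the latter lost without Aged library 1 or 2 (up to 0.0623). With PDK4-IN, 1 was lower than in Aged (25.7% of all genes). Against Young, 2 were lower with PDK4-IN (15.7% of all genes), among them Pbx3 at 16.1 ± 0.896 CPM. The median log2 fold change of the list was -0.16 with age and 0.08 for PDK4-IN over Aged.

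Polycomb proteins keep Hox genes silent where they are not used, and Trithorax proteins and the demethylases of histone H3 lysine 27 keep them active. Of 22 Polycomb genes, 5 rose and 2 fell with age, where 21.4% and 19.0% of all genes did. Ezh1, a methyltransferase of histone H3, rose from 27.6 ± 1.78 to 39.5 ± 1.74 CPM (0.50 ± 0.07, SE, adjusted p = 2.97e-04) and Jarid2, which helps to recruit the Polycomb complex, from 13.8 ± 0.310 to 19.7 ± 2.86 CPM. Rbbp7 and Ring1 fell, and Ring1 lost the call without Young library 1 or Aged library 2 or 3 (up to 0.128). With PDK4-IN over Aged 3 were higher and 7 lower, where 23.9% and 25.7% of all genes were. Among them were Cbx6, higher at 57.7 ± 10.6 against 24.6 ± 3.90 CPM, and Ezh2 and Suz12, core subunits of the methylating complex, which were lower at 15.5 ± 0.496 against 21.8 ± 0.392 and 43.2 ± 6.80 against 63.5 ± 2.49 CPM. Of 12 Trithorax and demethylase genes, Kdm6a, an H3 lysine 27 demethylase, rose with age from 24.2 ± 3.73 to 29.9 ± 1.17 CPM, a call lost in 7 of 12 alternatives, and Mllt3, a reader of histone marks, fell from 31.6 ± 0.502 to 22.1 ± 1.70 CPM. In the same list 6 were lower with PDK4-IN than in Aged (25.7% of all genes), Dot1l and Kdm6a with the lowest p. Against Young, 2 Polycomb genes (Cbx6, and Ezh1, lost in 7 of 12 alternatives) were higher with PDK4-IN and 4 lower, among them Rbbp7 and Phf19, and 3 genes of the other list were lower, among them Mllt3 and Dot1l. Over all genes tested, 13.3% were higher and 15.7% lower in that comparison.

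Retinoic acid is the best known signal that switches on Hox genes in the embryo. Of 16 tested genes of its pathway, 3 rose and 3 fell with age, shares near the 21.4% and 19.0% over all genes. The enzyme Aldh1a1, which makes retinoic acid, fell from 32.5 ± 5.34 to 7.31 ± 0.417 CPM (-2.17 ± 0.12, SE, adjusted p = 2.11e-07) and the carrier Crabp2 from 14.7 ± 0.694 to 7.42 ± 1.32 CPM. Cyp26b1, which breaks retinoic acid down, rose from 20.5 ± 2.03 to 43.6 ± 1.04 CPM and Dhrs3, which turns its precursor back to retinol, from 16.7 ± 0.517 to 34.4 ± 1.29 CPM. In the PDK4-IN group Aldh1a1 was at 21.3 ± 1.18, Cyp26b1 at 21.8 ± 1.16 and Dhrs3 at 19.9 ± 2.44 CPM, each called against Aged. Of the list, 4 genes were higher and 2 lower than in Aged, where 23.9% and 25.7% of all genes were. Against Young, 3 genes were higher with PDK4-IN, among them the carrier of retinoic acid Crabp1 at 105.1 ± 7.89 CPM, and Aldh1a1 and the receptor Rarg were lower, the last lost without PDK4-IN library 2 or with 6 libraries in the fit (up to 0.0657). Over all genes tested, 13.3% were higher and 15.7% lower against Young. Whether these genes and the Hox genes are linked in these cells was not tested.

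Of 10 listed names of regulators of the Hox code 9 were matched to a gene, and only 4 of these were tested. Gdf11, a secreted signal that sets the trunk to tail step of the Hox pattern, fell with age from 63.4 ± 1.59 to 43.6 ± 1.35 CPM (-0.55 ± 0.06, SE, adjusted p = 3.17e-05) and was higher with PDK4-IN, at 58.8 ± 2.69 CPM (0.44 ± 0.06, adjusted p = 1.24e-04). Egr2, a hindbrain gene that macrophages can also express, went from 1.21 ± 0.361 to 5.42 ± 0.562 CPM and was at 1.04 ± 0.102 CPM with PDK4-IN. It followed the order of the leukocyte markers given above, and the part of leukocytes in it was not tested.

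The Hox clusters also hold noncoding genes, of which 18 of 23 listed were matched and 5 microRNA genes had no count in any library. The most abundant, Gm53 of the HoxB cluster, stood at 31.8 ± 2.83 CPM in Young, 24.6 ± 1.44 in Aged and 35.8 ± 1.39 with PDK4-IN (-0.38 ± 0.08, SE, adjusted p = 0.00444 with age, and 0.55 ± 0.07, adjusted p = 9.65e-05 with PDK4-IN). Hoxa11os, which overlaps Hoxa11 on the opposite strand, stood at 15.9 ± 0.733, 11.8 ± 0.640 and 17.3 ± 2.02 CPM (-0.44 ± 0.09, adjusted p = 0.00253, and 0.56 ± 0.11, adjusted p = 0.00126). With age 2 of 7 tested fell (19.0% of all genes) and with PDK4-IN 3 of them were higher than in Aged (23.9% of all genes). Against Young, Hoxb3os was higher with PDK4-IN (2.09 ± 0.47, adjusted p = 0.00652). Exons of 10 Hox genes overlap a gene on the opposite strand and those of 9 a gene on the same strand in GENCODE M21, so reads of such partners may be shared. The labels name a TruSeq RNA kit without calling it stranded, whereas the study's methods name a stranded kit in a passage on human cells. Whether these mouse counts used strand is not given in the sources used here.

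Other transcription factors that mark regions of the mesenchyme were read from a list of 52 genes. Of 44 tested, 15 fell and 1 rose with age, 11 were higher and 3 lower with PDK4-IN than in Aged, and 1 was higher and 6 lower with PDK4-IN than in Young. Over all genes 19.0% fell and 21.4% rose with age, 23.9% were higher and 25.7% lower with PDK4-IN than in Aged, and 13.3% were higher and 15.7% lower than in Young. Osr1, a gene of the embryonic lung and kidney mesenchyme, fell with age from 20.97 ± 0.827 to 8.99 ± 0.308 CPM and Lhx9 from 27.9 ± 1.41 to 14.3 ± 1.58 CPM, while Hlx rose from 7.80 ± 0.507 to 13.8 ± 0.661 CPM. Shox2 and Hand2, both genes of limb and heart, were higher with PDK4-IN at 35.0 ± 2.83 and 25.2 ± 1.71 against 23.1 ± 1.27 and 17.7 ± 0.216 CPM in Aged, and Hlx and Prrx1, a gene of limb mesenchyme, were lower, the last a call lost in 5 of 12 alternatives. En1 was higher with PDK4-IN than in Young, at 37.6 ± 3.13 against 30.3 ± 1.02 CPM, a call also lost in 5 of 12. Tbx4 lay at 15.9 ± 1.95, 16.2 ± 0.659 and 14.8 ± 1.39 CPM and Foxf1 at 3.42 ± 0.834, 3.87 ± 0.336 and 4.33 ± 0.761 CPM. Pitx1, a hindlimb gene, lay at 11.3 ± 2.57, 8.69 ± 0.450 and 12.2 ± 0.881 CPM, and all of these were chosen after their values were seen.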

How the data were processed

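The authors sequenced 9 libraries labelled as mouse alveolar cells. Bowtie 0.12.2 and the build GRCm39 (mm39) stand in the submitters' processing notes, while the quantifier and annotation used for these mouse libraries are not given in the sources used here. The authors deposited expected counts per gene (estimated counts with fractions, not normalised) and TPM for each library, in a table of Young and Aged and another of Aged and PDK4-IN, with the same Aged columns. Deposited columns of the authors' own fold changes, p-values and group means were not used. Because the sheets carry names of other treatments (bleomycin among them), groups were assigned by column name alone.

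Counts were rounded and tested with edgeR 4.0.16 in R 4.3.3 (filterByExpr, TMM scaling, quasi-likelihood test, Benjamini-Hochberg over all genes tested, threshold 0.05), checked on simulated counts. Aged over Young and PDK4-IN over Aged used their own 6 libraries, PDK4-IN over Young all 9. CPM are counts over the library total, the SE that of the log2 fold change. Alternatives were DESeq2 1.42.0, RLE size factors, library totals alone, no filter on low counts, other libraries in the fit, a replicate block and leaving out each library.

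The Hox genes and the 7 pathway and 11 marker lists were chosen with earlier results of these data known. Members reaching 1 CPM in a group, or called, are given in every library, and from each pathway list up to 4 called genes per comparison (the 2 lowest p each way). A few genes that these rules select are not reported here singly, but remain in the counts and sums. Coordinates other than those of the RefSeq promoters are not given, since the annotation at hand is older than the files' build.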

Additional observations from a re-analysis of the deposited data

How the results depend on the processing

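No called Hox gene changed direction under any alternative in its comparison. Of the 17 called with age 11 were called under every alternative, of the 22 called with PDK4-IN over Aged 16, and of the 6 called with PDK4-IN over Young 3 (Hoxb3, Hoxc5 and Hoxd13). DESeq2 left 1 gene higher with age (Hoxd12) and 0 higher with PDK4-IN over Young, where 3 were higher at an unadjusted p under 0.05 and edgeR had called 2. Fitting all 9 libraries gave 2 higher and 18 lower with age, against 2 and 15 in the main fit, and kept all 17 main calls. Leaving out 1 library at a time gave 1 to 2 genes higher and 12 to 17 lower with age, 15 to 21 higher and 2 to 4 lower with PDK4-IN over Aged, and 0 to 2 higher and 3 to 5 lower with PDK4-IN over Young. Hoxc13 and Hoxd10, the higher pair against Young, both lost the call in DESeq2 (adjusted p of 0.0528 and 0.055) and without Young library 1 (0.077 and 0.0502), Young library 2 (0.0565 and 0.113) or PDK4-IN library 3 (0.0511 and 0.153). Hoxd13 with age, not called, ranged from -0.04 to 0.10 in log2 fold change when a library was left out, and its sign turned without Young library 1 (-0.0386). The signs of Hoxa7 and Hoxd10 with age, neither called, turned without Aged library 2 (0.0192 and 0.0018), and that of Hoxa7 also without Young library 2 (0.0127). Over all left-out libraries they ranged from -0.1758 to 0.0192 for Hoxa7 and from -0.2775 to 0.0018 for Hoxd10. Hoxb2 with age lost its call without Aged library 1 (adjusted p = 0.0716), Hoxb3 without Young library 2 or Aged library 1 or 3 (0.0609 to 0.0769), and Hoxc4 and Hoxd9 without Aged library 2 (0.0734 and 0.0611).

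Deviations of same-numbered libraries of the groups from their group means correlated by -0.065 to 0.159. Libraries of different number were not compared in this way, so a pairing by number is neither shown nor excluded. A replicate block gave 2 higher and 15 lower with age, 18 higher and 3 lower with PDK4-IN over Aged, and 2 higher and 3 lower with PDK4-IN over Young. With 3 libraries a group and members near 1 CPM, small differences were not detectable at this depth. Of the 56 calls made for named genes of the pathway lists, 48 were kept under all these alternatives, which for these lists were added after the data were seen.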
